A study of Mus musculus with 21 samples.

Results

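The genes described are 8 transcription factors of the formative epiblast, Otx2, Pou3f1, Sox3, Sox11, Sall2, Tead2, Zic2 and Zic5, taken by symbol from a table of 39396 mouse genes. Each of the 8 symbols matched 1 gene, and all 8 passed the filter on low counts that 16575 genes passed. RNA sequencing was done on 21 libraries, 3 for each of 7 groups, from A2 and D3, which are mouse embryonic stem cell (mESC) lines of the inner cell mass. In both lines, ground cells were mESCs kept in serum with 1000 U/mL of the cytokine LIF and the 2i inhibitors, naive cells were the ground cells after 4 days without 2i, and EPL cells (early primitive ectoderm-like) were the ground cells after 4 days with L-proline at 400 uM and LIF lowered to 330 U/mL, with no 2i named for that medium. All 3 of these groups therefore had serum and LIF. Naive and EPL cells were separate cultures made from ground cells. Steps between stages, such as from naive to EPL, are comparisons of these cultures, and no course in time was sampled. The epiblast stem cells (EpiSCs) came from A2 alone, after passage of A2 cells through a pseudopregnant mouse, and grew in serum replacement with activin A and basic FGF, so that medium and cell state cannot be told apart there. Whether replicates came from separate cultures is not stated, and p-values measure the spread between these libraries, which may be technical.

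In the embryo the formative state lies between the naive epiblast of the blastocyst and the primed epiblast that is ready for gastrulation. Otx2 and Pou3f1 (also called Oct6) are known for directing the transcription factor Pou5f1 (Oct4) to new enhancers as naive cells leave that state. Sox3 is a close relative of Sox2, Sox11 belongs to the SoxC group known from neural precursors, and Sall2 is a zinc finger relative of Sall4. Tead2 is one of the DNA-binding partners of the Hippo pathway coactivators Yap1 and Wwtr1, and Zic2 and Zic5 are zinc finger factors of early neural and neural crest development.

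Total counts per library ranged from 15320599 to 23490527, and levels are given in CPM (reads relative to a library size corrected by TMM factors). Pou5f1, the factor shared by all pluripotent states, was between 1074 and 1398 CPM on average in the 6 groups of ground, naive and EPL cells, and at 489 CPM in EpiSCs. In A2 the summed level of 9 naive markers such as Zfp42, Klf4 and Tfcp2l1 averaged 5696 CPM in ground, 3487 CPM in naive and 2230 CPM in EPL. It averaged 1013 CPM in EpiSCs, between 875 and 1101 CPM by library. The D3 means were 4477, 2978 and 1334 CPM in ground, naive and EPL, and the lowest D3 EPL library held 1243 CPM. The 8 primed markers summed to between 134 and 143 CPM in EpiSC libraries, between 88.2 and 97.0 CPM in A2 EPL and between 129 and 132 CPM in A2 ground, and Nodal made up 89.3 CPM of the EpiSC mean and 116 CPM of that in A2 ground. EpiSCs held Fgf5 at 12.7 CPM and Eomes at 22.3 CPM, while T, Mixl1 and Cer1 were at 4.41, 0.47 and 0.21 CPM. A list of 12 fibroblast markers summed to between 2393 and 3163 CPM in the EpiSC libraries and to between 5.53 and 13.5 CPM in the other 18. These are bulk libraries, in which fewer cells of a type and less RNA per cell cannot be told apart.

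The sequence just upstream of a start site shows what kind of promoter a gene has. RefSeq windows of 250 bases upstream of a start (build GRCm38.p6) were found for Otx2, Sox11, Sall2, Tead2 and Zic5. The 3 windows that hold no annotated exon are printed 5′ to 3′ on the minus strand, the strand of all 3 genes, as they belong to genes that rose at least 8-fold from ground to EPL on the mean of both lines. Those of Otx2 and Sall2 lie within the Ensembl gene, upstream of an inner RefSeq start, and that of Sox11 lies just outside its Ensembl gene. Capitals mark matches to general promoter motifs or their reverse complement.
Otx2, chr14:48667645-48667894: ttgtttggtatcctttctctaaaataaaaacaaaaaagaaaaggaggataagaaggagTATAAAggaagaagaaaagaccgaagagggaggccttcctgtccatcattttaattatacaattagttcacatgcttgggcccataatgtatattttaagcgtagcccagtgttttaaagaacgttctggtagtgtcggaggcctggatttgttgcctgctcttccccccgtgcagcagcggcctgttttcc
Sox11, chr12:27342719-27342968: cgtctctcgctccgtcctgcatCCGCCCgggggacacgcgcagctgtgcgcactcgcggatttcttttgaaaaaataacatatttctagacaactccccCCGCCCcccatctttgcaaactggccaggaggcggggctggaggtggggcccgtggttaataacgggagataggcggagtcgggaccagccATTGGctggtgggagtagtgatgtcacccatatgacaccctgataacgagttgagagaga
Sall2, chr14:52316324-52316573: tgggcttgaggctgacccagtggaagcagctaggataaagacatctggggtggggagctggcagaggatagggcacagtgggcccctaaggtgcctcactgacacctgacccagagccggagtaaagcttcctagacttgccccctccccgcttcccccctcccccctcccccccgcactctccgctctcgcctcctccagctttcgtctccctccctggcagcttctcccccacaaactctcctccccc

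The windows differ in base composition, with 42% G and C in Otx2, 58% in Sox11 and 64.4% in Sall2, against a median of 52.4% over 32851 promoters. Sox11 held 17 CpG dinucleotides, and Otx2 and Sall2 held 6 each, which is the median. Otx2 had the TATA box letters TATAAA, found in 12.4% of promoters, at position -192, counted back from the start to the leftmost base. Sox11 had the GC box letters GGGCGG (32.7% of promoters) on the other strand at positions -228 and -151, and the CCAAT box letters CCAAT (33.8%) on the other strand at position -60. None of the 3 windows held the letters TAATCC bound by OTX proteins (6.25%), the octamer ATGCAAAT of POU proteins (1.6%), GGAATG of TEAD (12.6%), ACAATG of SOX (10.7%), CAGCAGG of ZIC (8.44%) or CTTTGAT of TCF/LEF (3.21%). Both strands were searched for every motif, and the matches do not overlap. A match is a description of letters, and binding was not measured.

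Levels of different genes can be compared per kilobase of exon. On that scale Tead2 had the highest mean of the 8 in all 7 groups, from 12.5 CPM per kb in A2 ground to 37.9 CPM per kb in D3 EPL, and Zic2 was the second in ground and naive cells of both lines. The lowest mean was that of Pou3f1 in A2 ground (0.147 CPM per kb) and of Sox11 in D3 ground (0.19 CPM per kb). In EPL cells Pou3f1 took second place in both lines, at 16.8 ± 1.4 CPM per kb in A2 and 33.8 ± 1.4 CPM per kb in D3 (SD, n = 3). The ratio of the highest to the lowest of the 8 means was 85.1 in A2 ground and 141 in D3 ground, and 7.07 and 7.33 in EPL. The 8 genes thus lay closer together in EPL cells than in ground cells.

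**Figure D1:**
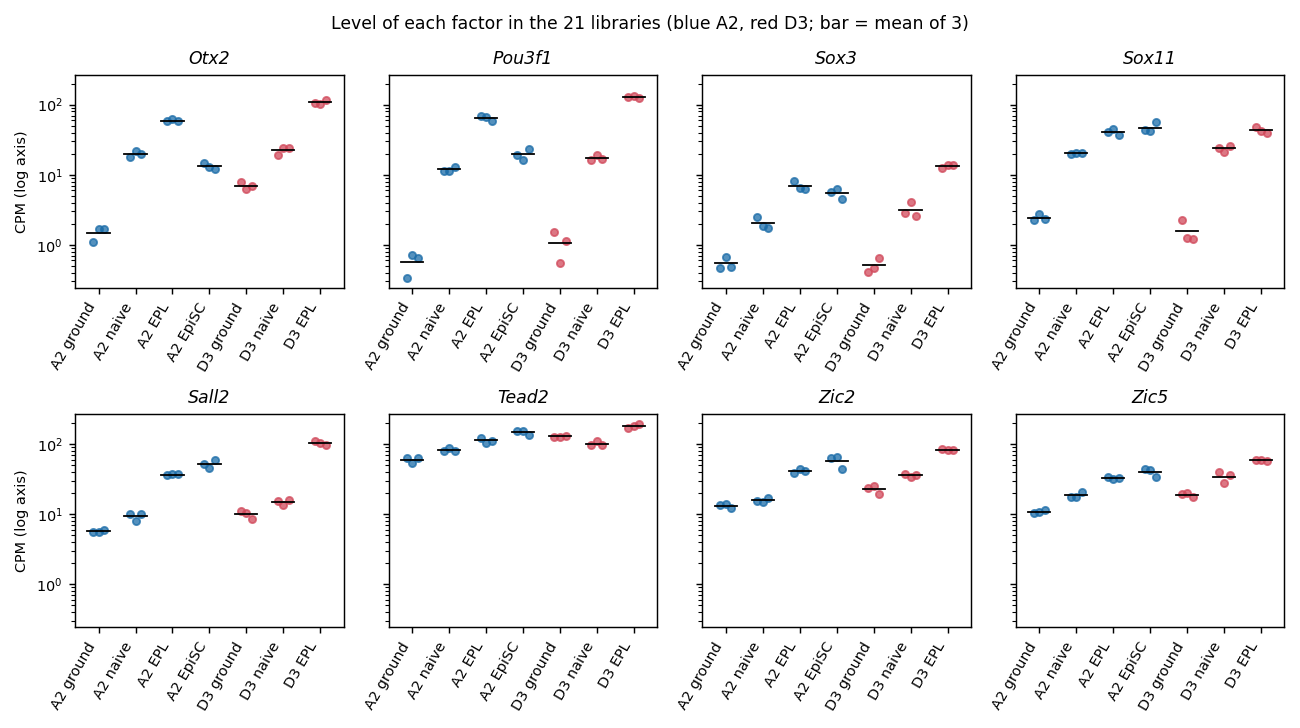
Level of each of the 8 factors in every library, in CPM on a log axis, with points for libraries (blue A2, red D3) and a bar for the mean of 3. Pou3f1 spans from 0.331 CPM in an A2 ground library to 135 CPM in a D3 EPL library, while Tead2 stays between 52.7 and 196 CPM.

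At the step from ground to naive, taken as the mean of both lines, 7 of the 8 factors were higher, 0 lower and 1 was not called, where 31.7% of all genes tested were called higher and 31.8% lower (edgeR, adjusted p under 0.05 over all genes). The median log2 change of the 8 was 1.54, against 0.01 over all genes. At the step from ground to EPL all 8 were higher, where 33.1% of genes were higher and 33.2% lower, with a median of 3.61 against 0.00. Between naive and EPL cells all 8 were higher in EPL, where 27.1% of genes were higher and 24.1% lower, with a median of 1.61 against 0.01. In each line alone, all 8 were higher in EPL than in ground (27.2% of genes in A2 and 29.4% in D3) and than in naive cells (16.8% and 24.4%). From ground to naive 7 were higher in A2 (25.1%), and in D3 7 were higher (26.3%) and 1 lower (27.3%). The libraries were apart, in the same direction in both lines, for 8 of 8 factors in EPL against ground and in EPL against naive (48% and 27.1% of all genes) and for 7 of 8 in naive against ground (45.1%). These comparisons share libraries. Markers of another cell type moved too: all 8 primitive endoderm markers were called higher in naive and in EPL cells than in ground, with sums of 4.00 to 6.15 CPM in ground libraries and 12.3 to 41.0 CPM in EPL libraries. Of 12 neural markers 8 were tested, and 5 of these were higher in EPL than in ground, 1 lower and 2 not called. The part of both lists in the results was not tested.

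**Figure D2:**
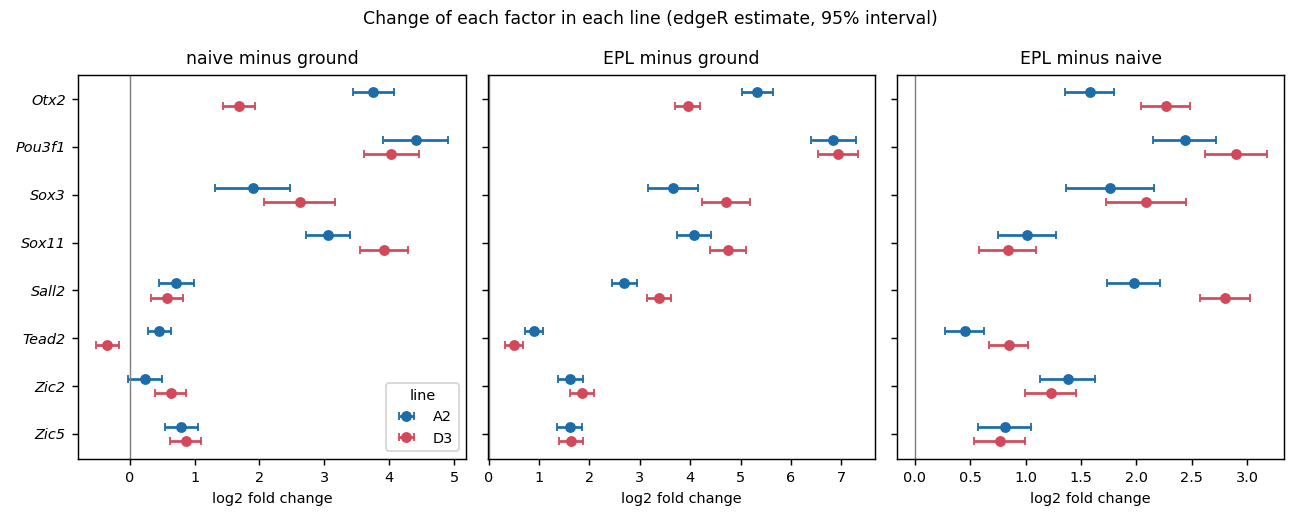
Log2 fold change of each factor in A2 (blue) and D3 (red) at 3 steps, with 95% intervals of the edgeR estimate. Every EPL estimate lies to the right of 0, the Otx2 intervals of the lines are apart at each step, and Tead2 in D3 is the one estimate below 0 (naive minus ground, -0.35).

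Otx2 is a paired-type homeodomain factor (ENSMUSG00000021848, minus strand, chr14:48657677-48673819). In A2 its level was 1.09, 1.66 and 1.69 CPM in the ground libraries, 17.8, 21.5 and 20.1 CPM in naive and 57.9, 62.0 and 57.6 CPM in EPL. In D3 it was 7.85, 6.32 and 6.84 CPM in ground, 19.2, 24.3 and 23.9 CPM in naive and 104.6, 102 and 118 CPM in EPL. The stages did not overlap in either line, and every D3 ground library was above every A2 ground library. Otx2 rose 13.5-fold from ground to naive in A2 (log2 3.76 ± 0.15 SE) and 3.21-fold in D3 (1.68 ± 0.12). The change was smaller in D3 by 2.07 ± 0.21 on the log2 scale (adjusted p = 2.78e-06), at a step where 3.06% of genes differed between the lines in either direction. From naive to EPL the order was the other way, with log2 changes of 1.58 ± 0.11 in A2 and 2.26 ± 0.11 in D3, a difference of 0.69 ± 0.15 (adjusted p = 0.0032; 12.7% of genes). From ground to EPL the change was 5.33 ± 0.15 in A2 and 3.95 ± 0.12 in D3.

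Otx2 also took a larger part of its small family, which here holds Otx1 and the retinal factor Crx. Its share of the family's summed CPM per kb was 76.0 ± 9.3% in A2 ground and 92.1 ± 2.8% in D3 ground, and 99.8 ± 0.062% and 99.6 ± 0.065% in EPL. Otx1, the other family gene that was tested, fell by 0.76 ± 0.23 from ground to naive and by 1.16 ± 0.25 from ground to EPL (adjusted p = 0.0092 and 0.00033). In single lines the first fall was called in D3 (adjusted p = 0.028) but not in A2 (0.19). The second was called in A2 (adjusted p = 0.0023) but not in D3 (0.073). Otx1 stayed at or below 0.73 CPM on average in every group, so its changes and the ground shares rest on few reads. Of the 7 group means of Otx2 in their order, D3 EPL was highest and A2 ground lowest, and neighbours differed except D3 naive and A2 naive (0.18 ± 0.11, adjusted p = 0.22). Of all genes, 20.1% were called between the lines in ground, 29.9% in naive and 29.4% in EPL. Other neighbours had shares of 40.5% (A2 EPL and D3 naive), 51% to 56.6% (the rest without EpiSCs) and 69.4% to 74.5% (with EpiSCs). The orders of the other factors, given below, use pairs from this set.

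Pou3f1 is a POU domain factor encoded by a single exon (ENSMUSG00000090125, plus strand, chr4:124656807-124660655). Its counts in ground cells were low, with 7, 13 and 12 reads in A2 and 30, 12 and 21 in D3. In CPM these were 0.331, 0.718 and 0.652 in A2 and 1.52, 0.558 and 1.15 in D3. Naive libraries held 11.5, 11.4 and 12.9 CPM in A2 and 16.2, 19.2 and 16.9 CPM in D3, and EPL libraries 68.3, 66.9 and 58.5 CPM in A2 and 130.4, 135 and 124 CPM in D3. No library of one stage reached into another, and Pou3f1 had the largest change of the 8 at each step. It rose 115-fold in A2 and 122-fold in D3 from ground to EPL (log2 6.84 ± 0.21 and 6.93 ± 0.19). From ground to naive it rose by 4.41 ± 0.24 and 4.03 ± 0.20. The difference between the lines from ground to EPL was 0.08 ± 0.44, with a 95% interval of -0.83 to 1.0 (adjusted p = 0.95).

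Pou3f1 became the main gene of the POU class III family. It made up 33.7 ± 11% of the family level in A2 ground and 37.3 ± 14% in D3 ground, 94.4 ± 1.7% and 97.2 ± 0.65% in naive, and 98.4 ± 0.45% and 99.2 ± 0.074% in EPL. Pou3f2 (Brn2), a neural factor, fell by 2.73 ± 0.39 and Pou3f3 by 1.25 ± 0.32 from ground to EPL, while Pou3f4 rose by 2.99 ± 0.45 (adjusted p = 2.22e-06, 0.0017 and 3.4e-06). In single lines the fall of Pou3f3 was called in A2 (adjusted p = 0.0018) but not in D3 (adjusted p = 0.18). All 3 relatives stayed at or below 2.03 CPM on average in every group, so the ground shares rest on few reads. Neighbours in the order of Pou3f1 levels differed except A2 EpiSC and D3 naive (0.18 ± 0.14, adjusted p = 0.25) and the ground cells of the lines (0.92 ± 0.37, adjusted p = 0.083).

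Sox3 is a single-exon gene of the X chromosome (ENSMUSG00000045179, minus strand, chrX:60891366-60893430). Its A2 levels were 0.473, 0.663 and 0.489 CPM in ground, 2.48, 1.86 and 1.75 CPM in naive and 8.03, 6.42 and 6.16 CPM in EPL. Its D3 levels were 0.405, 0.465 and 0.657 CPM in ground, 2.80, 4.04 and 2.55 CPM in naive and 12.6, 13.7 and 13.7 CPM in EPL. The stages were apart in both lines, from 8 to 12 reads per ground library. Sox3 rose 12.6-fold in A2 (3.66 ± 0.24) and 26.1-fold in D3 (4.71 ± 0.23) from ground to EPL. The lines' changes differed by 1.05 ± 0.40, which was not called (adjusted p = 0.085).

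Sox3 nevertheless remained a small part of the SoxB1 family. Its share was 0.124 ± 0.029% in A2 ground and 0.125 ± 0.031% in D3 ground, and 1.43 ± 0.18% and 3.61 ± 0.10% in EPL. Sox2, the partner of Pou5f1 in pluripotent cells, made up at least 96.1% of the family on average in ground, naive and EPL cells. On the mean of both lines it was not called between EPL and ground (-0.03 ± 0.05, adjusted p = 0.57). In single lines Sox2 was lower in D3 EPL (-0.19 ± 0.07, adjusted p = 0.029) and not called in A2 (0.12 ± 0.07, adjusted p = 0.17). The difference between the lines was called (-0.31 ± 0.10, adjusted p = 0.048). Sox1, a neural relative, fell by 1.63 ± 0.15 from ground to EPL (adjusted p = 1.75e-09), and in naive cells it was at 7.86 ± 1.3 CPM in A2 and 15.2 ± 3.4 CPM in D3, against 8.61 ± 1.3 and 6.20 ± 0.85 CPM in ground. Sox3 levels in A2 EPL and A2 EpiSC (0.32 ± 0.17, adjusted p = 0.094) and in the ground cells of both lines (0.09 ± 0.36, adjusted p = 0.91) were the neighbours in its order with no call.

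Sox11 is encoded by 1 long exon (ENSMUSG00000063632, minus strand, chr12:27334264-27342574). In A2 it was at 2.22, 2.76 and 2.34 CPM in ground, 19.7, 20.4 and 20.6 CPM in naive and 41.4, 44.6 and 36.7 CPM in EPL. In D3 it was at 2.28, 1.25 and 1.20 CPM in ground, 24.3, 21.4 and 26.1 CPM in naive and 47.4, 41.8 and 39.6 CPM in EPL. It differed more between ground and naive, 8.31-fold in A2 (3.06 ± 0.17) and 15.1-fold in D3 (3.92 ± 0.18), than between naive and EPL, 2.02-fold and 1.79-fold. The difference between the lines at the step to naive was 0.86 ± 0.27 and not called (adjusted p = 0.085). It was called without D3 ground library 1 (1.22, adjusted p = 0.015), without A2 EpiSC library 3 (0.86, adjusted p = 0.043), without a filter on low counts (0.87, adjusted p = 0.0072) and with DESeq2 (0.88, adjusted p = 0.021).

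Both other SoxC genes rose with Sox11 from ground to EPL, Sox4 by 4.18 ± 0.12 and Sox12 by 0.87 ± 0.05 (adjusted p = 3.41e-18 and 7.05e-13). Sox12 was the main member in ground cells, with 92.3 ± 1.6% of the family level in A2 and 95.8 ± 0.69% in D3. In EPL cells Sox12 was at 63.2 ± 1.4% and 58.8 ± 0.27%, Sox4 at 18.9 ± 0.39% and 24.6 ± 0.75%, and Sox11 at 17.9 ± 1.2% and 16.6 ± 0.99%. The 3 highest group means of Sox11, those of A2 EpiSC, D3 EPL and A2 EPL, had no call between neighbours (adjusted p = 0.32 and 0.73), and neither had the lines in naive (adjusted p = 0.16) or ground cells (adjusted p = 0.065).

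Sall2 differed more between naive and EPL than between ground and naive. Its levels (ENSMUSG00000049532, minus strand, chr14:52311172-52328762) were 5.49, 5.58 and 5.87 CPM in A2 ground, 9.97, 7.89 and 10.0 CPM in A2 naive and 35.6, 37.2 and 36.8 CPM in A2 EPL. In D3 the ground libraries held 11.0, 10.4 and 8.37 CPM, the naive libraries 15.4, 13.5 and 15.7 CPM and the EPL libraries 112, 103 and 95.4 CPM. It rose 1.65-fold in A2 and 1.49-fold in D3 from ground to naive, and 3.93-fold and 6.95-fold from naive to EPL. The latter change was larger in D3 by 0.82 ± 0.16 (adjusted p = 0.0012), and that from ground to EPL by 0.68 ± 0.17 (adjusted p = 0.007; 13.3% of genes in either direction).

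Sall4, a core pluripotency factor, and Sall1 were the main members of the Sall family throughout. The share of Sall2 was 0.919 ± 0.051% in A2 ground and 1.46 ± 0.17% in D3 ground, and 5.76 ± 0.25% and 14.7 ± 0.35% in EPL. From naive to EPL the other 3 were lower on the mean of both lines, Sall4 by 0.40 ± 0.06, Sall1 by 0.27 ± 0.07 and Sall3 by 1.38 ± 0.11 (adjusted p = 3.98e-06, 0.0049 and 1.95e-09). In single lines the fall of Sall1 was called in D3 (adjusted p = 0.036) but not in A2 (adjusted p = 0.068). Sall3 fell by 0.53 ± 0.16 in A2 and by 2.23 ± 0.17 in D3, and this difference was called (adjusted p = 4.24e-05). In the order of Sall2 levels, D3 ground and A2 naive were the neighbours that were not called (0.10 ± 0.12, adjusted p = 0.51).

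Tead2 had the smallest range of the 8, 3.02-fold between its highest and lowest group (ENSMUSG00000030796, plus strand, chr7:45215753-45233644). In A2 it was at 64.1, 52.7 and 63.3 CPM in ground, 80.1, 87.8 and 78.9 CPM in naive and 122, 104 and 112 CPM in EPL. In D3 it was at 127.7, 127.6 and 128.6 CPM in ground, 96.2, 109 and 96.9 CPM in naive and 169, 178 and 196 CPM in EPL. A2 libraries were lowest in ground and highest in EPL, while D3 naive libraries were all below D3 ground libraries. The change from ground to naive was 0.45 ± 0.09 in A2 (adjusted p = 0.00012) and -0.35 ± 0.08 in D3 (adjusted p = 0.0014), and this difference of -0.80 ± 0.12 was called (adjusted p = 0.00039). From ground to EPL Tead2 rose by 0.91 ± 0.09 in A2 and by 0.50 ± 0.08 in D3, and from naive to EPL by 0.45 ± 0.08 and 0.85 ± 0.08.

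The differences between lines for Tead2 were close to the threshold at the other 2 steps. That of EPL against ground, -0.40 ± 0.12 (adjusted p = 0.026), was lost without A2 ground library 2 (-0.32), A2 EPL library 1 (-0.34) or D3 EPL library 1 (-0.35). That of EPL against naive, 0.40 ± 0.12 (adjusted p = 0.03), was lost in 8 of 21 fits that left out 1 library. These were the fits without A2 naive library 1 (0.40) or 2 (0.33), A2 EPL library 2 (0.33) or 3 (0.37), D3 naive library 1 (0.34) or 3 (0.35), and D3 EPL library 2 (0.39) or 3 (0.32).

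The makeup of the TEAD family changed as well. Tead4, known from the trophectoderm, fell from 73.1 ± 2.9 CPM in A2 ground to 19.4 ± 1.4 CPM in naive and 17.1 ± 1.3 CPM in EPL, and in D3 from 63.0 ± 2.0 CPM to 19.2 ± 2.5 and 8.90 ± 0.68 CPM. Its change from ground to EPL was -2.46 ± 0.07 (adjusted p = 7.61e-19), that of Tead1 -0.92 ± 0.13 (adjusted p = 1.24e-06) and that of Tead3 1.40 ± 0.13 (adjusted p = 2.16e-09). The share of Tead2 was 26.6 ± 1.7% in A2 ground, 50.3 ± 3.9% in A2 naive and 61.3 ± 2.6% in A2 EPL. In D3 it was 44.8 ± 0.78%, 61.9 ± 6.7% and 78.4 ± 3.5%, so that its share rose at the step to naive in D3 while its level fell. Tead2 levels in D3 ground, A2 EPL and D3 naive followed each other without a call between neighbours (adjusted p = 0.065 and 0.14).

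Zic2 and Zic5 lie head to head on chromosome 14, with starts 9758 bases apart (ENSMUSG00000061524, plus strand, chr14:122475435-122479852, and ENSMUSG00000041703, minus strand, chr14:122456795-122465677). Zic2 was at 13.7, 13.7 and 12.3 CPM in A2 ground, 15.4, 14.7 and 16.7 CPM in A2 naive and 38.3, 43.3 and 40.6 CPM in A2 EPL. In D3 it was at 23.7, 25.5 and 19.4 CPM in ground, 36.9, 34.3 and 35.5 CPM in naive and 85.5, 80.9 and 83.1 CPM in EPL. The A2 ground and naive libraries of Zic2 were next to each other without overlap, and its change there was not called (0.24 ± 0.13, adjusted p = 0.12), while it rose by 0.63 ± 0.12 in D3. With scaling to the total count the A2 change was called (0.32, adjusted p = 0.047), and also without A2 EpiSC library 3 (0.23, adjusted p = 0.041). From naive to EPL Zic2 rose by 1.38 ± 0.12 in A2 and by 1.23 ± 0.11 in D3.

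Zic5 was at 10.2, 10.6 and 11.6 CPM in A2 ground, 17.8, 17.7 and 20.7 CPM in A2 naive and 34.1, 31.3 and 33.1 CPM in A2 EPL. In D3 it was at 19.2, 19.8 and 17.6 CPM in ground, 39.8, 27.7 and 35.5 CPM in naive and 58.2, 59.9 and 56.8 CPM in EPL. Its differences of naive from ground and of EPL from naive were nearly equal. They were 0.79 ± 0.12 and 0.81 ± 0.12 in A2 and 0.86 ± 0.12 and 0.77 ± 0.11 in D3. The lines differed by 0.02 ± 0.17 in its change from ground to EPL, with a 95% interval of -0.33 to 0.37, and by 0.24 ± 0.17 in that of Zic2 (-0.11 to 0.58).

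Of the related Zic1 and Zic4, Zic1 was at or below 0.312 CPM on average outside EpiSCs, and Zic4 did not pass the filter. In the order of Zic2 levels, A2 EPL and D3 naive (adjusted p = 0.18) and A2 naive and A2 ground were neighbours with no call. In that of Zic5 these were A2 EpiSC, D3 naive and A2 EPL (adjusted p = 0.083 and 0.69) and D3 ground and A2 naive (adjusted p = 0.94).

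In all, 18 differences in family share were tested, 3 steps for each of Otx2, Pou3f1, Sox3, Sox11, Sall2 and Tead2, by an exact two-sided permutation test within lines. The share was higher in naive and in EPL than in ground, and higher in EPL than in naive, in all 18. In each, p was 0.005, the smallest this design can give (adjusted p = 0.005 over the 18). These tests use the same libraries as the calls above, so they are not separate support for them. The mean difference from ground to EPL ran from 2.40 percentage points for Sox3 to 63.2 for Pou3f1.

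**Figure D3:**
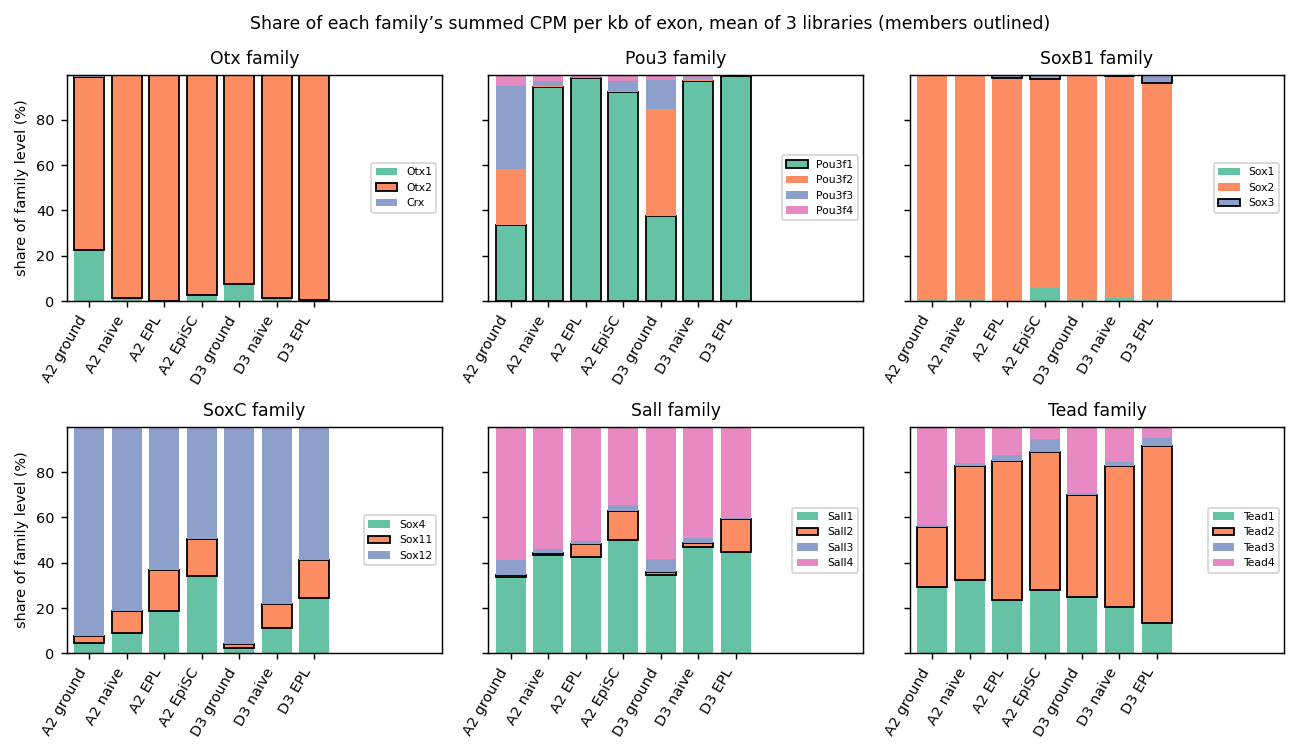
Share of each gene in the summed CPM per kb of its family, as the mean of 3 libraries in each group, with 6 of the 8 factors, all but Zic2 and Zic5, outlined in black. Pou3f1 goes from 33.7% and 37.3% in ground to over 98% in EPL, Tead2 from 26.6% and 44.8% to 61.3% and 78.4%, and Sox3 stays under 4%.

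EpiSCs are known as primed cells, but the markers of these libraries, given above, are mixed. The primed markers summed to between 134 and 143 CPM here, against 129 to 132 CPM in A2 ground. Most of both sums was Nodal, which was lower in EpiSCs, so the sums say little of the other markers. Fgf5 went the other way, with 12.7 CPM in EpiSCs and 0.0996 CPM in A2 ground. The state is not settled by these markers. Against A2 EPL cells, 4 of the 8 factors were higher in A2 EpiSCs, 2 lower and 2 not called, where 39.1% of all genes were called higher and 31.3% lower. The median of the 8 was 0.24, against 0.07 over all genes. Otx2 was at 14.7, 12.8 and 12.2 CPM in the EpiSC libraries, 4.48 times lower than in EPL (-2.16 ± 0.11, adjusted p = 1e-13). Pou3f1 was at 19.3, 16.2 and 23.6 CPM, 3.28 times lower (-1.71 ± 0.13, adjusted p = 1.07e-10). For both, every EpiSC library lay below every EPL library. The share of all genes whose libraries are apart in this comparison was not counted.

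Sall2 was at 51.0, 45.8 and 58.9 CPM in EpiSCs (0.51 ± 0.10, adjusted p = 0.00012), Zic2 at 63.0, 65.7 and 44.6 CPM (0.51 ± 0.11, adjusted p = 0.00035) and Tead2 at 155, 153 and 135 CPM (0.39 ± 0.08, adjusted p = 0.00025). These 3 were higher than in EPL without overlap, for which no share over all genes was counted. Zic5, at 44.2, 42.1 and 33.3 CPM, was called at 0.28 ± 0.11 (adjusted p = 0.029). That call was lost without A2 EPL library 2 (0.24) or 3 (0.27) and without A2 EpiSC library 1 (0.19) or 2 (0.22). Sox3 was at 5.65, 6.34 and 4.54 CPM and not called (-0.32 ± 0.17, adjusted p = 0.094), though it was without A2 EpiSC library 2 (-0.45, adjusted p = 0.037). Sox11 was at 43.3, 41.9 and 55.8 CPM, overlapping EPL (0.20 ± 0.12, adjusted p = 0.14).

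Against A2 naive cells, 7 of the 8 were higher in EpiSCs and 1 lower (39.1% and 31.2% of genes). The lower one was Otx2 (-0.59 ± 0.11, adjusted p = 6.6e-05), and Sall2 was the most changed (2.48 ± 0.11). Against A2 ground cells all 8 were higher (39.1% of genes), from 1.30 ± 0.09 for Tead2 to 5.13 ± 0.23 for Pou3f1, and each by at least 2-fold. These 3 comparisons use the same EpiSC libraries.

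**Figure D4:**
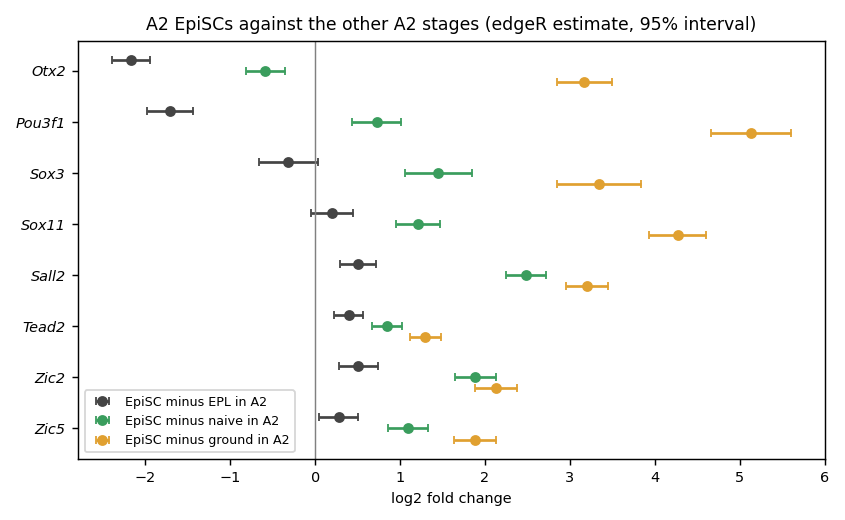
Log2 fold change of each factor in A2 EpiSCs against A2 EPL (grey), naive (green) and ground (orange) cells, with 95% intervals of the edgeR estimate. Against EPL, Otx2 (-2.16) and Pou3f1 (-1.71) lie far to the left of 0 and the other 6 between -0.32 and 0.51.

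Other cell type markers moved with the EpiSC stage, in a comparison with EPL where 39.1% of all genes were called higher and 31.3% lower. All 12 fibroblast markers were called higher in EpiSCs than in EPL, with Col1a1 at 1232 CPM, Col1a2 at 716 CPM and Acta2 at 272 CPM. All 8 primitive endoderm markers were also higher, with sums of 141 to 195 CPM in EpiSCs and of 12.3 to 22.8 CPM in A2 EPL, among them Gata4 at 29.2 CPM. Neural markers summed to between 347 and 478 CPM in EpiSCs and between 151 and 153 CPM in A2 EPL, with Hes5, Olig2 and Neurog2 at or below 0.208 CPM on average in both. General pluripotency genes were lower in 5 of 5 cases, with Pou5f1 at 514, 554 and 399.7 CPM in EpiSC libraries 1, 2 and 3 and at a mean of 1074 CPM in EPL. The third library, with the highest fibroblast sum (3163 CPM) and the lowest Pou5f1, had the lowest Otx2, Sox3, Tead2, Zic2 and Zic5 of the 3 and the highest Pou3f1, Sox11 and Sall2. The part of these markers in the EpiSC differences of the 8 factors was not tested.

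EpiSC values also depend on scaling. The 3 EpiSC libraries had TMM factors from 1.136 to 1.145, and all other libraries from 0.933 to 1.007. With scaling to the total count instead, the median change of all genes in EpiSCs against EPL moved from 0.07 to 0.27, and the share of higher genes among those called from 55.5% to 68.6%. Against naive the share moved from 55.6% to 67.0% and against ground from 53.5% to 69.4%. Under that scaling the changes from EPL were -1.96 for Otx2, -1.51 for Pou3f1, -0.11 for Sox3 and 0.41 for Sox11, the last of which was then called (adjusted p = 0.0058). Those of the 4 called higher were 0.71 for Sall2, 0.71 for Zic2, 0.60 for Tead2 and 0.48 for Zic5.

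D3 cells carried more of most of these factors than A2 cells at the same stage. In ground cells 5 of the 8 were higher in D3, 0 lower and 3 not called, where 9.13% of genes were called higher. In naive cells 6 were higher and 2 not called (14.5% of genes higher), and in EPL cells 7 were higher and 1 was not called (15.6%). The medians of the 8 were 0.81, 0.59 and 0.91, against 0.00, -0.01 and 0.02 over all genes. Zic2, Zic5, Sall2 and Tead2 were called at all 3 stages. Zic5 was higher by 0.81 ± 0.12, 0.87 ± 0.12 and 0.83 ± 0.11 in ground, naive and EPL cells, and Zic2 by 0.79 ± 0.12, 1.19 ± 0.12 and 1.03 ± 0.11.

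The largest difference between lines was that of Otx2 in ground cells, 4.77-fold higher in D3 (2.26 ± 0.17, adjusted p = 2.28e-09), while Otx2 in naive cells was not called (0.18 ± 0.11, interval -0.04 to 0.41). Sall2 differed most in EPL cells, 2.83-fold (1.50 ± 0.10, adjusted p = 3.34e-10). Tead2 was 2.13-fold higher in D3 ground (1.09 ± 0.09), 1.22-fold in naive and 1.61-fold in EPL. The naive call was lost without D3 naive library 2 (0.23, adjusted p = 0.064). Pou3f1 and Sox3 were called in naive (0.55 ± 0.14 and 0.63 ± 0.21) and EPL cells (1.01 ± 0.12 and 0.96 ± 0.16). The naive call of Sox3 was lost without A2 naive library 2 (0.59) or 3 (0.55) or D3 naive library 2 (0.41).

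Sox11 was the exception, at -0.62 ± 0.23 in ground (adjusted p = 0.065), 0.24 ± 0.13 in naive and 0.07 ± 0.12 in EPL, with no call. In ground cells it was called lower in D3 without D3 ground library 1 (-0.97, adjusted p = 0.0074), without A2 EpiSC library 3 (-0.62, adjusted p = 0.039), without a filter (adjusted p = 0.021) and with DESeq2 (adjusted p = 0.032). Pou3f1 in ground cells, at 0.92 ± 0.37, was called higher without D3 ground library 2 (1.27, adjusted p = 0.013), without a filter (adjusted p = 0.021) and with DESeq2 (adjusted p = 0.03). Differences between the lines in the size of a change were called for 2 of 8 factors from ground to naive (3.06% of genes), 3 from ground to EPL (13.3%) and 3 from naive to EPL (12.7%), and these 8 of 24 belonged to Otx2, Tead2 and Sall2.

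Other genes linked to the formative state were read beside the 8 factors. Of 15 such genes, 12 rose, 1 fell and 2 were not called from ground to naive (median 1.77), where 31.7% of all genes were higher and 31.8% lower. From ground to EPL 10 rose, 2 fell and 3 were not called (median 2.36), where 33.1% of all genes were higher and 33.2% lower. Fgf15 rose by 5.56 ± 0.15 from ground to EPL, Lef1, a Wnt effector, by 5.10 ± 0.19 and Grhl2, an epithelial factor, by 3.94 ± 0.08. Fgf5 went from 6 reads in all A2 ground libraries to 5.31, 3.63 and 4.59 CPM in A2 EPL, and D3 ground held 1 read in all against 23.3, 24.2 and 25.7 CPM in D3 EPL. From naive to EPL 9 rose, 4 fell and 2 were not called (median 0.30), where 27.1% of all genes were higher and 24.1% lower. The 4 that fell were Etv4, Rbpj, Foxd3 and Etv5.

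Between EPL and EpiSCs 12 of the 15 fell, 1 rose and 2 were not called (median -0.92), where 31.3% of all genes were lower and 39.1% higher. The fibroblast markers rose in the same comparison, and their part in it was not tested. The de novo methyltransferase Dnmt3b fell by 3.13 ± 0.09, from 839, 827 and 712 CPM to 91.0, 96.0 and 84.2 CPM. Its cofactor gene Dnmt3l fell by 2.85 ± 0.09, Foxd3 by 2.73 ± 0.14 and Grhl2 by 2.26 ± 0.09. Fgf5 was the gene that rose (1.50 ± 0.23, adjusted p = 4.43e-06). Most of the list was thus lower in EpiSCs, as Otx2 and Pou3f1 were, while Sall2, Zic2, Tead2 and Zic5 were higher.

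The Hippo pathway, whose kinases keep Yap1 and Wwtr1 (TAZ) out of the nucleus, was read beside Tead2. Of 17 genes 15 were tested (Vgll1 and Vgll2 did not pass the filter). From ground to EPL 2 rose, 10 fell and 3 were not called (median -0.48), where 33.1% of all genes were higher and 33.2% lower. The coactivator Wwtr1 fell by 1.45 ± 0.06, Amotl2 by 1.45 ± 0.11, the kinase gene Lats2 by 1.91 ± 0.17 and Vgll4, a competitor for TEAD binding, by 2.04 ± 0.14, while Amot, which binds Yap1, rose by 3.03 ± 0.18. Yap1 was not called (0.05 ± 0.04, adjusted p = 0.37). In EpiSCs against EPL 12 of 15 were higher, 2 lower and 1 not called (median 0.89), with Lats2 up by 3.18 ± 0.24, Amot by 2.69 ± 0.20 and Vgll3 by 2.57 ± 0.26. At this step 39.1% of all genes were higher and 31.3% lower. EpiSC library 3, with the highest fibroblast sum, held Lats2 at 30.5 CPM against 18.1 and 16.0 CPM in libraries 1 and 2, and Vgll3 at 26.9 CPM against 12.8 and 10.1 CPM. The part of the fibroblast markers in these changes was not tested.

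Of 12 genes used as readouts of YAP and TEAD, 5 rose, 5 fell and 2 were not called from ground to EPL, where 33.1% of all genes were higher and 33.2% lower. The median of the 12 was -0.45, and 0.02 without Ankrd1, which has few reads there, so its sign rests on that gene. Lats2 and Amotl2 are in both lists. Nt5e fell by 2.86 ± 0.12, Myof by 2.68 ± 0.14, Lats2 by 1.91 ± 0.17 and Ccn1 by 1.46 ± 0.12, while the 5 that rose were Crim1 (1.06 ± 0.14), Axl (0.90 ± 0.24), Ajuba (0.80 ± 0.06), Ccn2 (0.66 ± 0.10) and Ptpn14 (0.45 ± 0.14). In EpiSCs against EPL 11 were higher and 1, Ajuba, lower (-0.53 ± 0.09), with a median of 2.41, where 39.1% of all genes were higher and 31.3% lower. Axl, a receptor kinase also expressed by fibroblasts, was at 3.19, 1.90 and 4.47 CPM in EPL and 109, 97.3 and 196 CPM in EpiSCs, and Ccn1 rose by 4.24 ± 0.18. Ankrd1 had no count in the 3 A2 EPL libraries and was at 9.06 ± 3.2 CPM in EpiSCs, at least 155-fold higher when the EPL group is set at 3 counts over its libraries, and the median is the same with Ankrd1 at that bound. Tead2 itself changed 1.31-fold there. The fibroblast markers given above moved with this list, and their part in it was not tested.

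Across the 21 libraries the 28 pairs of the 8 factors had Pearson correlations of log2 CPM between 0.461 (Sox11 and Tead2) and 0.967 (Pou3f1 and Sox3), with a median of 0.848. Zic2 and Zic5 stood at 0.96 and Zic2 and Sall2 at 0.954. The points share their 7 groups, so these values describe the stages and lines and not independent samples. Among 11312 other genes at 5 CPM or more in some group, the 2 most like Otx2 were Cdh3 (P-cadherin, r = 0.976) and Hpn (0.971), and those most like Pou3f1 were Epcam, an epithelial adhesion molecule (0.983), and Lsr (0.979). Lsr was also the closest to Sox3 (0.985), followed by Car14 (0.977). Sox11 was most like Bcl11a (0.988) and Armcx2 (0.986), Sall2 like Prom1 (0.975) and Stim1 (0.97), and Zic5 like Tarsl2 (0.976) and Adarb1 (0.974). Zic2 was most like Vps16 (0.984) and the mitotic kinase gene Bub1 (0.967). For Tead2 the closest genes were Lrp3 (0.9) and Bub1 (0.894).

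The genes near the 8 factors were read for context. Within 50 kb, 0 of 8 annotated neighbours of Otx2 and 0 of 2 of Sox3 were seen at 1 CPM or more in any group, and Sox11 had no annotated neighbour. Gm49154, 1 of the 8 of Otx2, has no level given here, so it cannot be placed below 1 CPM. Beside Zic2, the noncoding gene 2610035F20Rik starts 236 bases away on the other strand. It rose by 0.74 ± 0.19 from ground to naive and by 2.24 ± 0.17 from ground to EPL (adjusted p = 0.0022 and 1e-10), and its group means ran from 0.751 CPM in A2 ground to 8.43 CPM in D3 EPL. Of the neighbours of Sall2, Mettl3 rose by 0.32 ± 0.05 from ground to EPL (adjusted p = 6.5e-06), where Sall2 rose by 3.03 ± 0.08, and Tox4 and Rab2b were lower, at -0.26 ± 0.04 and -0.22 ± 0.08 (adjusted p = 2.14e-06 and 0.016). The TruSeq RNA v2 kit named in the labels does not mark strand, so reads from overlapping genes cannot be told apart. Cd37 shares 13 exonic bases with Tead2 and reached 12.1 CPM in D3 ground, Otx2os1 shares 154 bases with Otx2 and stayed at or below 0.272 CPM, and Gm2164 shares 330 bases with Pou3f1 and stayed at or below 0.0681 CPM. Gm49154, which shares 168 exonic bases with Otx2 on the same strand, was not analysed here.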

How the data were processed

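Per the labels the authors sequenced RNA with a TruSeq kit, and the matrix they deposited holds raw counts of reads for 39396 genes in the 21 libraries. The submitters' processing notes name HISAT2, SAMtools and featureCounts and the build GRCm38. The sources used here do not give versions, annotation or the strandedness used in counting. All 39396 identifiers matched GENCODE on GRCm38, which gave coordinates and exon lengths. edgeR 4.0.16 (R 4.3.3) was used with filterByExpr (minimum count 10, minimum total 15), TMM scaling and a quasi-likelihood fit of 7 group means over 21 libraries. P-values were adjusted by Benjamini-Hochberg over 16575 genes and called below 0.05. The SE is the log2 change divided by the root of F. On simulated counts of 16575 genes for naive against ground, 88% of changes of log2 1 and 95% of log2 2 were recovered, with 6 false calls. There 100 genes were changed at each size, up and down alike, and all others were equal between groups. In the data 10518 genes were called at this step, a setting that was not simulated. Named genes were the 8 factors, members of their families, up to 4 called genes of largest change per list, the 2 genes most like each factor, and neighbours within 50 kb at 1 CPM or more. Fgf5 (in EpiSCs), Yap1, Wwtr1, Ajuba, Crim1, Axl, Ccn2, Ptpn14, Etv4, Rbpj, Foxd3, Etv5, overlapping genes and markers were named beyond this rule, after their values were seen. The factors and lists were chosen with earlier results of these data known. Alternatives were other scalings, filters, DESeq2 1.42.0, a replicate block, each line alone and leaving out each library. Shares of a family's summed CPM per kb of exon were tested by exact permutation within lines. Shares of the ZIC family are not reported here.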

Additional observations from a re-analysis of the deposited data

Results flagged for a closer look

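The results here are those in which a test of line by stage was called, so that the same step differed in size between D3 and A2 (edgeR, adjusted p under 0.05 over all genes). From ground to naive the D3 change minus the A2 change was -2.07 on the log2 scale for Otx2 and -0.80 for Tead2. From ground to EPL it was -1.39 for Otx2, -0.40 for Tead2 and 0.68 for Sall2. From naive to EPL it was 0.69 for Otx2, 0.82 for Sall2 and 0.40 for Tead2. Both values of Tead2 that involve EPL were lost in some fits that left out 1 library, as given above.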

How the results depend on the processing

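Of 144 values of a factor in a comparison, 144 kept their side of the threshold with RLE size factors and with a stricter low-count filter (3 libraries at 1 CPM and 10 counts). With scaling to the total count 142 did, without a filter 139 and with DESeq2 141. Those that changed became called, and none turned direction where a call was made. Changes of direction among values without a call were not counted. A fit to each line alone kept 72 of 72; it gives no value for means over both lines or for differences between lines. Fits that left out 1 library kept 2997 of 3024 values, with 19 calls lost and 8 gained, and none turned direction where a call was made. In D3 against A2 ground cells 1 factor, in place of 0, was called lower without a filter and with DESeq2, and between 0 and 1 when 1 library was left out. For the difference between lines from ground to naive, 1 factor in place of 0 was called higher without a filter and with DESeq2, and 0 to 1 with 1 library left out. For that from ground to EPL, 2 in place of 1 were called higher without a filter; with 1 library left out 1 to 2 were higher and 1 to 2 lower. The series text calls the samples paired without saying how. Taken by replicate number, most pairs of libraries did not deviate together. Of 63 pairs with the same number the correlation of deviations exceeded 0.1 in 8 (median -0.02, range -0.20 to 0.36). Closest to their own number were 5 of 21 libraries. A replicate block changed none of the 144 values' calls and gave 10449 called genes from ground to naive in place of 10518. For family shares, leaving out 1 replicate number allows no p below 0.0556, so those are values with no test. Ground-state reads of Pou3f1, Sox3 and Sox11 in both lines and of Otx2 in A2, between 7 and 50 per library, limit the precision of their fold changes.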
